A study of Homo sapiens with 20 samples.

Results

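Romidepsin and panobinostat were compared in OPM2 cells after 5 h, each at 10 nM. The comparison rests on 4 of the series' 20 libraries, 2 with romidepsin and 2 with panobinostat, and covers the 20957 genes, of 78932 gene identifiers counted, that passed a filter on low counts. OPM2 is a human multiple myeloma cell line, a malignant plasma cell grown in culture, and all groups were of this 1 line. Poly(A) RNA was sequenced as read pairs of 100 bases in strand-specific libraries. Further groups used here were romidepsin and panobinostat at 10 nM after 2 h and 20 h, and the vehicle DMSO, for which the labels give no harvest time. The other 6 libraries, with the hydroxamic acid ricolinostat at 100 nM after 2, 5 and 20 h, entered the filter, the scaling and the estimate of the spread only. Each group had 2 independent biological replicates per the study design, and the labels give no batch.

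Histone deacetylases (HDACs) remove acetyl groups from histones and other proteins, and both drugs block them at the zinc ion of the active site. Romidepsin is a cyclic depsipeptide, a prodrug whose reduced thiol binds the zinc, and it acts mainly on the class I enzymes that sit in nuclear corepressor complexes. Panobinostat is a hydroxamic acid that inhibits class I enzymes and also HDAC6, a cytoplasmic deacetylase of tubulin and of the chaperone HSP90. Myeloma cells depend on plasma cell factors such as IRF4 and on MYC, and on the folding and degradation systems that a secretory cell needs. No acetylation was measured here, and whether 10 nM of each drug blocks the enzymes to the same degree was not tested.

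Total counts were 25116361 and 20918293 with romidepsin, 17264640 and 23580723 with panobinostat, and 25313510 and 28656570 with DMSO. The 10 plasma cell markers checked were all detected, with a summed level of 5437 to 5513 CPM (read counts scaled to library size) with romidepsin, 3111 to 3186 CPM with panobinostat and 7495 to 7595 CPM with DMSO. Markers of other bone marrow and tissue cell types summed to at most 5.19 CPM in any of these libraries. In the 4 libraries compared, 1 of 8 T and NK markers was at 0 counts, as were 4 of 8 myeloid, 2 of 6 erythroid and 3 of 6 early B markers. The same held for 3 of 6 stromal and 5 of 6 epithelial markers. Early B markers, mostly RAG1, summed to 2.25 to 2.5 CPM with romidepsin and 3.59 to 3.93 CPM with panobinostat. With DMSO the early B markers summed to 0.41 to 0.635 CPM. Low sums of some lists were larger with panobinostat: myeloid markers summed to 1.07 to 1.18 CPM with romidepsin and 4.21 to 4.86 CPM with panobinostat, and stromal markers, mostly COL1A1, to 0.0926 to 0.237 CPM with romidepsin and 4.1 to 5.19 CPM with panobinostat. In bulk RNA, fewer cells carrying a transcript and less of it per cell cannot be told apart.

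The transcriptomes after the 2 drugs differed widely at 5 h. With romidepsin 5188 genes were higher than with panobinostat (24.8% of those tested) and 5431 were lower (25.9%), at an adjusted p under 0.05 in the edgeR quasi-likelihood test, together 10619 (50.7%). In 15187 genes (72.5%) the romidepsin libraries did not overlap the panobinostat libraries. At least 2-fold differences were found in 1580 genes that were higher (7.54%) and 2512 that were lower (12%). The median log2 difference over all genes tested was -0.01 and the median size was 0.59. Libraries of the same drug had Spearman correlations of 0.9852 with romidepsin and 0.9819 with panobinostat, against 0.9423 to 0.9456 between drugs.

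**Figure D1:**
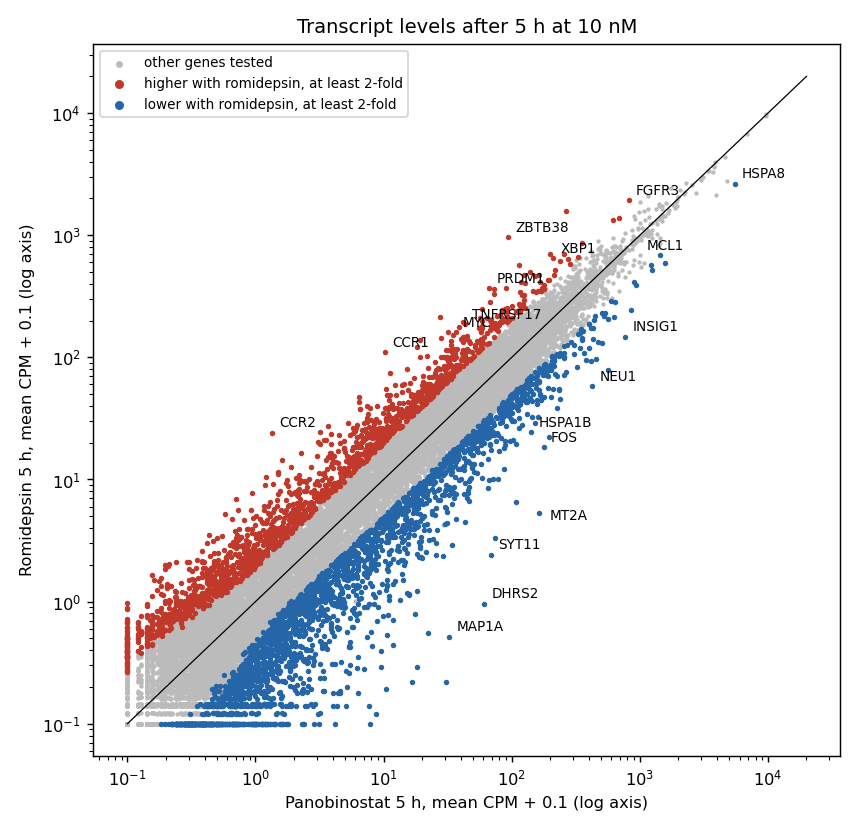
Mean level of each gene tested after 5 h with romidepsin (vertical axis) against panobinostat (horizontal axis), in CPM + 0.1 on log axes, n = 2 libraries each. Points above the line of equal level were higher with romidepsin. Red and blue points are genes that passed the test and were at least 2-fold higher or lower. The colours rest on rounded values, so the points may differ slightly from the 1580 and 2512 genes counted.

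The vehicle libraries show on which side these differences lay. Against DMSO, 2734 genes were higher (13%) and 3464 lower (16.5%) with romidepsin, while 6443 were higher (30.7%) and 5422 lower (25.9%) with panobinostat. The median size of the log2 difference from DMSO was 0.30 with romidepsin and 0.69 with panobinostat, and both comparisons share the DMSO libraries. Of the 1580 genes at least 2-fold higher with romidepsin than with panobinostat, the DMSO mean was nearer to romidepsin in 1339 (84.7%), on the log2(CPM + 0.1) scale. Of the 2512 genes at least 2-fold lower with romidepsin, it was nearer to romidepsin in 2401 (95.6%), and over all genes tested in 72.6%. The lower genes had a median DMSO level of 0.531 CPM, and 59.1% of them were under 1 CPM in DMSO, against 23.4% of the higher genes and 38.7% of all genes tested. A gene nearly silent with DMSO and romidepsin could pass the filter through libraries where it was high. The filter thus partly sets these shares. The higher genes had a median DMSO level of 4.55 CPM, and over all genes tested it was 3.38 CPM. Long intergenic and antisense RNA genes made up 24.5% of the higher and 12.6% of the lower genes with an annotated type, against 15.5% of all genes tested. The strand setting of the counting is not given in the sources used here, so counts of antisense genes are uncertain.

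Plasma cell and myeloma genes had a higher level with romidepsin than with panobinostat. Of 14 plasma cell transcription factors tested, 10 were higher, 1 was lower and 3 did not pass the test, with a median log2 difference of 1.04. All list counts at 5 h stand beside the shares over all genes tested, 24.8% higher and 25.9% lower. Among better expressed genes more were called, 4746 higher and 5031 lower of 14013 at a minimum count of 50. PRDM1, the factor that drives plasma cell differentiation, had 377 and 358 CPM with romidepsin, 71.4 and 61.5 CPM with panobinostat, and 516 and 514 CPM with DMSO. The drugs' libraries did not overlap, as in 72.5% of all genes tested, and the difference was 2.47 ± 0.05 on the log2 scale (SE, n = 2 each, adjusted p = 2.8e-69). IKZF3, encoding the lymphoid factor Aiolos, was higher by 2.37 ± 0.07 (adjusted p = 4.2e-53), and IKZF1, encoding Ikaros, by 1.71 ± 0.05 (adjusted p = 5.6e-52). XBP1, the factor of the secretory and unfolded protein programme, had 644 and 650 CPM with romidepsin, against 215 and 207 CPM with panobinostat and 910 and 928 CPM with DMSO. POU2AF1, a B cell coactivator named after its values were seen, had 444 and 420 CPM with romidepsin, 204 and 188 CPM with panobinostat, and 384 and 368 CPM with DMSO.

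IRF4, the factor on which myeloma cells depend, showed a small difference. It had 925 and 920 CPM with romidepsin, 873 and 856 CPM with panobinostat, and 1767 and 1736 CPM with DMSO. The log2 difference between the drugs was 0.09 ± 0.03 (adjusted p = 0.018), with a 95% interval of 0.02 to 0.16. IRF4 was thus about equally far under the DMSO level with both drugs, by a log2 difference of -0.92 ± 0.03 with romidepsin and -1.02 ± 0.03 with panobinostat. Whether IRF4 passed the test depended on the scaling and on single libraries. Its adjusted p was 0.089 with DESeq2-type size factors, 0.061 without romidepsin replicate 1, 0.077 without romidepsin replicate 2 and 0.10 without panobinostat replicate 2, and ran from 0.0043 to 0.10 over the alternatives.

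Of 19 myeloma surface and secretory genes tested, 15 were higher with romidepsin, none was lower and 4 did not pass, with a median of 1.07. TNFRSF17, encoding the antibody target BCMA, had 186 and 188 CPM with romidepsin, 43.1 and 43.1 CPM with panobinostat, and 301 and 301 CPM with DMSO. SLAMF7, the target of elotuzumab, had 370 and 371 CPM with romidepsin, against 92.7 and 87 CPM with panobinostat and 367 and 367 CPM with DMSO, so that its romidepsin level differed from DMSO by 0.01 on the log2 scale (adjusted p = 0.91). The chemokine receptor CCR1 had 113 and 108 CPM with romidepsin, 10.7 and 9.65 CPM with panobinostat, and 301 and 287 CPM with DMSO. CCR2, a neighbouring chemokine receptor gene on chromosome 3, had 24.7 and 23.3 CPM with romidepsin, 1.14 and 1.36 CPM with panobinostat, and 12.7 and 13.1 CPM with DMSO. It showed the largest log2 difference among the higher protein-coding genes that met the naming rule, 4.24 ± 0.19 (adjusted p = 7.6e-39), and lay above DMSO with romidepsin and under it with panobinostat. SDC1, the plasma cell proteoglycan CD138, named after its values were seen, had 693 and 702 CPM with romidepsin, 199.6 and 199 CPM with panobinostat, and 1111 and 1126 CPM with DMSO. FGFR3, a receptor tyrosine kinase driven by the translocation that OPM2 carries, had 1958 and 1934 CPM with romidepsin, 841 and 793 CPM with panobinostat, and 3519 and 3551 CPM with DMSO. In these surface genes no romidepsin library reached down to a panobinostat library, and in 72.5% of all genes tested the libraries did not overlap either.

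The other protein-coding genes with the largest positive differences were of mixed function. ZBTB38, a zinc finger protein that binds methylated DNA, had 975 and 961 CPM with romidepsin, 90.8 and 96.7 CPM with panobinostat, and 1574 and 1570 CPM with DMSO, a log2 difference of 3.36 ± 0.05 (adjusted p = 6.7e-53). TASL, an adaptor of endosomal Toll-like receptors, was higher by 2.92 ± 0.10 (adjusted p = 9.0e-48), and MGAT3, a glycan-branching enzyme, by 2.86 ± 0.06 (adjusted p = 1.8e-64). PTPN7, STBD1, MORC1, THEMIS, PCED1B, NRROS and P2RY10 completed the 12 named, at 2.79 to 3.19. THEMIS and P2RY10 are known from lymphocytes, and MORC1 from the male germ line.

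MYC was also higher with romidepsin, while much of its network was lower. MYC, the growth-promoting factor, had 160.5 and 159 CPM with romidepsin, 37.4 and 35.3 CPM with panobinostat, and 448 and 432 CPM with DMSO. Both drugs' libraries lay under DMSO, and the log2 difference between the drugs was 2.14 ± 0.05 (adjusted p = 4.5e-59). Of 12 members of the MYC and MAX network tested, 3 were higher and 8 lower. MXD1, which encodes a repressing partner of MAX, had 10.3 and 9.51 CPM with romidepsin, 70.7 and 72.1 CPM with panobinostat, and 11 and 9.88 CPM with DMSO. MNT, another repressing partner, lay under DMSO with romidepsin (14.6 and 15.8 CPM) and near it with panobinostat (35.4 and 35.9 CPM), where DMSO had 37.3 and 37.2 CPM. Ribosome biogenesis genes were split, 18 of 40 higher and 11 lower with a median of 0.13, against 24.8% and 25.9% over all genes tested. DKC1, the pseudouridine synthase dyskerin, had 236 and 231 CPM with romidepsin, 114 and 115 CPM with panobinostat, and 327 and 323 CPM with DMSO.

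Heat shock chaperones were lower with romidepsin. Of 25 chaperone and co-chaperone genes tested, 16 were lower and none was higher in the 20-library fit, with a median of -0.19, and up to 2 were higher in the other settings tried. HSPA1B, the stress-inducible HSP70, had 23.5 and 25.3 CPM with romidepsin, 139 and 145 CPM with panobinostat, and 6.01 and 6.04 CPM with DMSO. Both drugs exceeded DMSO without overlap, and the log2 difference between them was -2.54 ± 0.07 (adjusted p = 3.1e-54). HSPA1A, its near-identical neighbour, was lower by -2.37 ± 0.20, and reads of this pair may be split uncertainly between them. DNAJB1, the co-chaperone of HSP70, had 133 and 128 CPM with romidepsin, 495 and 517 CPM with panobinostat, and 96.3 and 94 CPM with DMSO. HSPA8, the constitutive HSP70, named after its values were seen, had 2658 and 2612 CPM with romidepsin, 5419 and 5604 CPM with panobinostat, and 1965 and 1986 CPM with DMSO.

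Promoters of these genes are shown because they hold the letters of the element that heat shock factor 1 binds. GAANNTTC reads the same on both strands. In the 250 bases before a RefSeq start it occurred in 11 of 22 chaperone genes matched by symbol. It occurred in 7.05% of 27305 RefSeq genes and in none of the 6 genes of the metallothionein list matched in RefSeq. A gene with several RefSeq windows counted if any of them held a match. DNAJB1 had 3 windows, and the window with the most matches is shown. The stretches, from RefSeq on GRCh38.p14, are chr6:31827488-31827737 on the plus strand for HSPA1B, chr19:14518398-14518647 on the minus strand for DNAJB1 and chr11:123062137-123062386 on the minus strand for HSPA8, with the matches in capitals.
HSPA1B: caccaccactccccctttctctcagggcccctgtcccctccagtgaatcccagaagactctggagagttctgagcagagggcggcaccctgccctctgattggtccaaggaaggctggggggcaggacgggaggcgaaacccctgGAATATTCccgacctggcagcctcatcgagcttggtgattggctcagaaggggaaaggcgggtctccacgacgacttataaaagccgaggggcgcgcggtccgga
DNAJB1: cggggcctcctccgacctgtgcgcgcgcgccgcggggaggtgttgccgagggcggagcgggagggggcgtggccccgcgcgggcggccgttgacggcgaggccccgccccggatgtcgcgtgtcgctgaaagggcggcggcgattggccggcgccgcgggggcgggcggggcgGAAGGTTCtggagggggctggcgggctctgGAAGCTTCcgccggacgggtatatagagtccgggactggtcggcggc
HSPA8: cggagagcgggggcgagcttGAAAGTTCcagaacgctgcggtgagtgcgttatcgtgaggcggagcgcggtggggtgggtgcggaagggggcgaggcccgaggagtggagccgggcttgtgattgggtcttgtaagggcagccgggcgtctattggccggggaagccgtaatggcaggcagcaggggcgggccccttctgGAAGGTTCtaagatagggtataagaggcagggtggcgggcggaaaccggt
A match in these letters does not show binding in these cells.

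Metallothioneins are small proteins that bind zinc and copper, and their list also held MTF1, the zinc-sensing factor that switches them on, and SLC30A1, a zinc exporter. All 5 genes tested of 12 listed were lower with romidepsin, with a median of -4.05, and 3 of the 5, MT2A, MT1X and MT1G, were metallothioneins and at least 2-fold lower. The other 7 did not pass the filter on low counts, and a gene seen mainly with panobinostat could pass it through those libraries, so the count is not over all members. MT2A had 5.36 and 5.05 CPM with romidepsin, 180.1 and 148 CPM with panobinostat, and 3.47 and 3.47 CPM with DMSO. MT1X had 6.71 and 6.21 CPM with romidepsin, 115 and 101 CPM with panobinostat, and 6.56 and 6.45 CPM with DMSO. With romidepsin both genes were close to DMSO, and the log2 differences between the drugs were -4.97 ± 0.16 for MT2A (adjusted p = 9.3e-11) and -4.05 ± 0.09 for MT1X (adjusted p = 7.4e-66). The differences were smaller for MTF1, at -0.89 ± 0.06, and for SLC30A1, at -0.94 ± 0.05. Metallothionein genes are close copies of one another, so the split of reads among them is uncertain.

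Their promoters are shown for the metal response element that MTF1 binds. TGCACNC or TGCGCNC on either strand, where matches may overlap, occurred in 5 of 6 listed genes matched in RefSeq, in 10 of the 22 chaperone genes (45.5%) and in 28.5% of RefSeq genes. As above, a match in any window of a gene counted. The stretches are chr16:56608334-56608583 for MT2A and chr16:56682220-56682469 for MT1X, both on the plus strand of GRCh38.p14, with the matches in capitals, of which MT2A held 7 and MT1X 4.
MT2A: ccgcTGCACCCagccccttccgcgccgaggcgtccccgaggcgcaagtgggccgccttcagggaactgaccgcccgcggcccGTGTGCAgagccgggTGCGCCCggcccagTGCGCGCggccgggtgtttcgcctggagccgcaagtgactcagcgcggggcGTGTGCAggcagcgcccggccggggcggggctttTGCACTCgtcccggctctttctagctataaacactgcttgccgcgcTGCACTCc
MT1X: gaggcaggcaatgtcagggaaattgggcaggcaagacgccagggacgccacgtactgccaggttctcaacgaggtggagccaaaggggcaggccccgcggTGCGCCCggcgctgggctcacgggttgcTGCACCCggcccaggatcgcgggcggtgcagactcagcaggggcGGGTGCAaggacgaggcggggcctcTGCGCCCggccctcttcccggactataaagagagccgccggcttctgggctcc
These windows were not tested for protein binding.

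Genes of sterol synthesis and of lysosomes were lower with romidepsin. Of 25 sterol genes tested 20 were lower and 4 higher, with a median of -0.79. INSIG1, the sterol-sensing brake in the endoplasmic reticulum, had 151 and 145 CPM with romidepsin, 780.3 and 758 CPM with panobinostat, and 199 and 217 CPM with DMSO. Romidepsin was under DMSO and panobinostat above it, and the log2 difference between the drugs was -2.38 ± 0.04 (adjusted p = 6.5e-72). TM7SF2, a sterol reductase, was lower by -2.84 ± 0.11, IDI1, an isoprenoid isomerase, by -1.84 ± 0.05 and LSS, lanosterol synthase, by -1.35 ± 0.05. Of 27 autophagy and lysosome genes tested, 20 were lower and 2 higher, with a median of -0.60. NEU1, the lysosomal sialidase, had 59.8 and 56 CPM with romidepsin, 429 and 424 CPM with panobinostat, and 74.2 and 76.9 CPM with DMSO. MAP1LC3B, the autophagosome protein LC3B, had 94.5 and 95.6 CPM with romidepsin, 398 and 367 CPM with panobinostat, and 109.8 and 106 CPM with DMSO. Romidepsin libraries of both genes were slightly under DMSO.

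**Figure D2:**
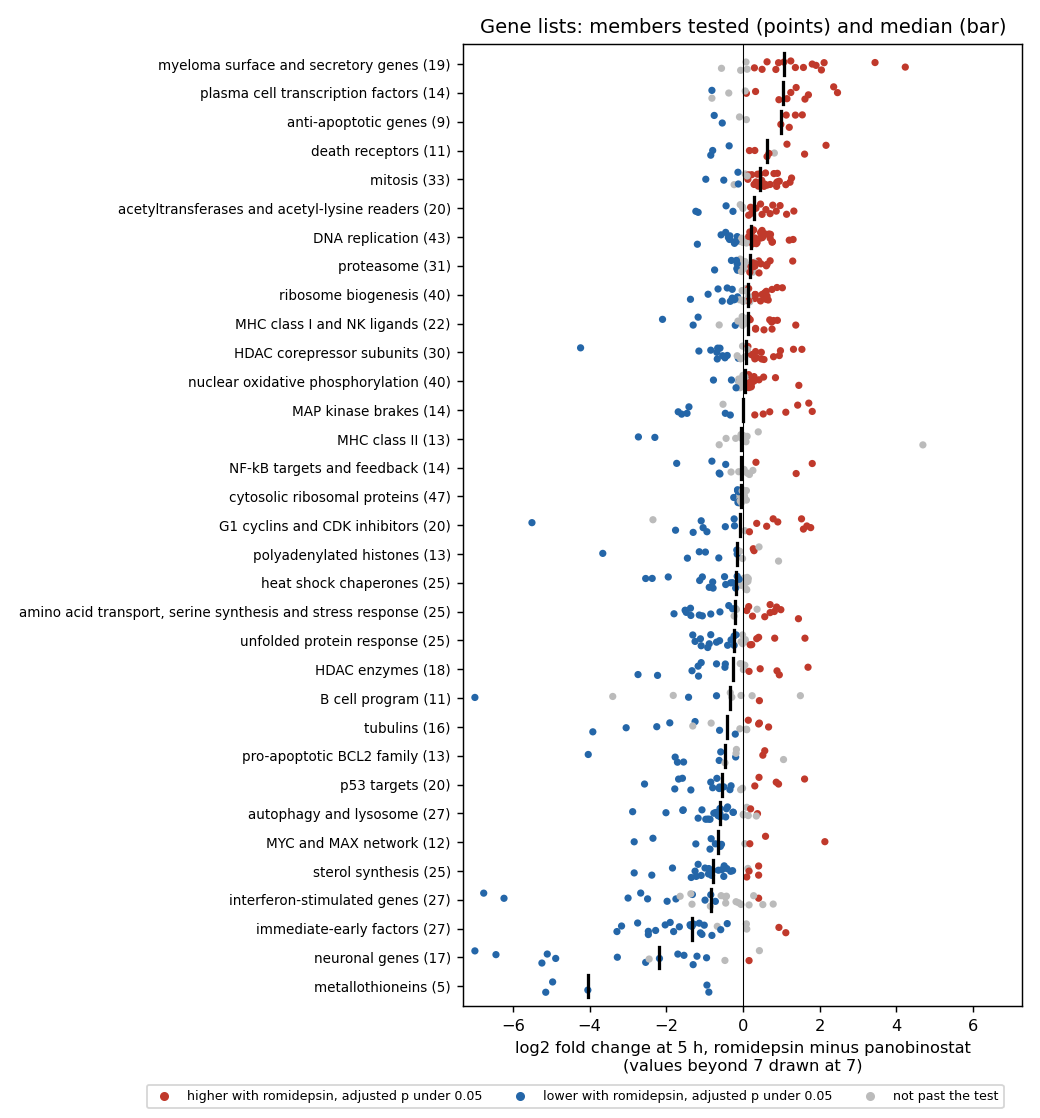
Log2 difference at 5 h, romidepsin minus panobinostat, of the tested members (points, number tested in brackets) of 33 gene lists, with the list median as a black bar. Medians run from -4.05 for metallothioneins to 1.07 for myeloma surface and secretory genes.

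Folding genes of the endoplasmic reticulum leaned the same way, and proteasome genes did not. In the unfolded protein response list 14 of 25 were lower and 6 higher, with a median of -0.23. XBP1, described above and also in this list, was among the higher genes, by 1.62 ± 0.04. CALR, the chaperone calreticulin, had 531 and 507 CPM with romidepsin, 1241 and 1234 CPM with panobinostat, and 562 and 566 CPM with DMSO. Of 31 proteasome genes 14 were higher, 6 lower and 11 did not pass, with a median of 0.18, and the number lower was 2 to 6 over the settings tried. PSMD2, a base subunit, was lower by -0.74 ± 0.04, whereas PSMD7, a lid subunit, was higher by 1.30 ± 0.05 and PSMB5, the subunit that bortezomib binds, by 0.71 ± 0.07. Of 47 cytosolic ribosomal protein genes 35 did not pass and 12 were lower, with a median of -0.05, and the number lower ran from 3 to 23 over the settings. This was close to the share lower over all genes tested, 25.9%.

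Immediate-early factors were lower with romidepsin. Of 27 tested 22 were lower, 19 of them at least 2-fold, 2 were higher and 3 did not pass, with a median of -1.33. FOS, a subunit of AP-1, had 18.6 and 17.8 CPM with romidepsin, 177 and 179 CPM with panobinostat, and 12.8 and 14.6 CPM with DMSO, a log2 difference of -3.29 ± 0.16 (adjusted p = 4.4e-09). EGR1, a growth-responsive zinc finger factor, had 2.76 and 2.32 CPM with romidepsin, 14.6 and 10.5 CPM with panobinostat, and 0.847 and 0.559 CPM with DMSO. The stress gene IER3 was lower by -3.17 ± 0.19. For both FOS and EGR1 the panobinostat libraries at 5 h stood above the romidepsin libraries at 5 h and the DMSO libraries. Genes that restrain MAP kinases were split, 7 of 14 higher and 6 lower. DUSP16 was higher by 1.81 ± 0.08, with 66.2 and 74.8 CPM with romidepsin and 19.9 and 20.3 CPM with panobinostat. DUSP1 was lower by -1.69 ± 0.11. In the NF-kB list, NFKB1 was higher by 1.39 ± 0.07 while NFKB2 was lower by -1.73 ± 0.06, and 6 of 14 members did not pass.

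Genes that were nearly silent in DMSO made up most of the largest negative differences. Such genes could pass the filter through libraries where they were high, and a very low level gives large ratios. Filter and ranking thus partly set this outcome. EPPK1, encoding the cytolinker epiplakin, had 0 counts in both romidepsin libraries, against 318 counts over both panobinostat libraries, and was at least 119-fold lower with a floor of 3 counts over the group. ANKRD35 had 2 counts with romidepsin and 314 with panobinostat, a 176-fold ratio with a 95% counting interval of 48.4 to 1461. MAP1A, a microtubule-associated protein of neurons, had 0.552 and 0.278 CPM with romidepsin, 33.7 and 30.8 CPM with panobinostat, and 0.339 and 0.224 CPM with DMSO, a log2 difference of -6.22 ± 0.19 (adjusted p = 8.5e-52). DHRS2, a dehydrogenase known to respond to HDAC inhibitors, had 0.71 and 1.02 CPM with romidepsin, 53.9 and 67.5 CPM with panobinostat, and 0.847 and 0.335 CPM with DMSO. The insulin-responsive glucose transporter gene SLC2A4 was lower by -5.67 ± 0.27 and the imprinted CDK inhibitor gene CDKN1C by -5.51 ± 0.43. BAIAP3, CDH15, HID1, MMP17 and CAPN5 completed the 12, with MT2A, at -4.95 to -6.54.

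Among 17 neuronal genes tested, 13 were lower and 1 higher, with a median of -2.18, or -1.70 with the 5 genes of at most 3 counts in a group set at their bound or ratio. The other 7 listed genes did not pass the filter, and members nearly silent with DMSO and romidepsin could pass it through libraries where they were high, so the count and median do not describe all members. SYT11, a vesicle protein, had 2.25 and 2.41 CPM with romidepsin, 69 and 69.3 CPM with panobinostat, and 0.508 and 0.224 CPM with DMSO. TUBB3, the neuronal beta-tubulin, had 0.868 and 1.21 CPM with romidepsin, 15.6 and 15.6 CPM with panobinostat, and 0.0847 and 0.224 CPM with DMSO. Both genes were above DMSO with each drug and much further above it with panobinostat. TUBB4B, a widely expressed tubulin, had 400.3 and 381 CPM with romidepsin, 929 and 931 CPM with panobinostat, and 600.4 and 610 CPM with DMSO, and of 16 tubulins 7 were lower and 4 higher.

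Survival genes differed in both directions. Of 13 pro-apoptotic BCL2 family genes 7 were lower with romidepsin and 2 higher, with a median of -0.47. BCL2L11, encoding the death activator BIM, had 44.2 and 43.4 CPM with romidepsin, 143 and 143 CPM with panobinostat, and 58.1 and 57.4 CPM with DMSO, a log2 difference of -1.71 ± 0.06 (adjusted p = 2.7e-47). BBC3, encoding PUMA, had 0.552 and 0.371 CPM with romidepsin, 8.32 and 7.34 CPM with panobinostat, and 0.805 and 1.27 CPM with DMSO. Romidepsin libraries of both genes lay under DMSO and panobinostat libraries above it. Of 9 anti-apoptotic genes tested 5 were higher and 2 lower, with a median of 0.99. BCL2 had 98 and 96.3 CPM with romidepsin, 30.9 and 35.4 CPM with panobinostat, and 95.9 and 101 CPM with DMSO. MCL1, the BCL2 relative that myeloma cells rely on, had 681 and 686 CPM with romidepsin, 993 and 1001 CPM with panobinostat, and 672 and 665 CPM with DMSO, and was lower by -0.54 ± 0.04. The death receptor gene FAS was higher by 1.61 ± 0.20 and the kinase gene RIPK1 by 2.17 ± 0.14, whereas TNFRSF10B, encoding a TRAIL receptor, was lower by -0.84 ± 0.10.

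**Figure D3:**
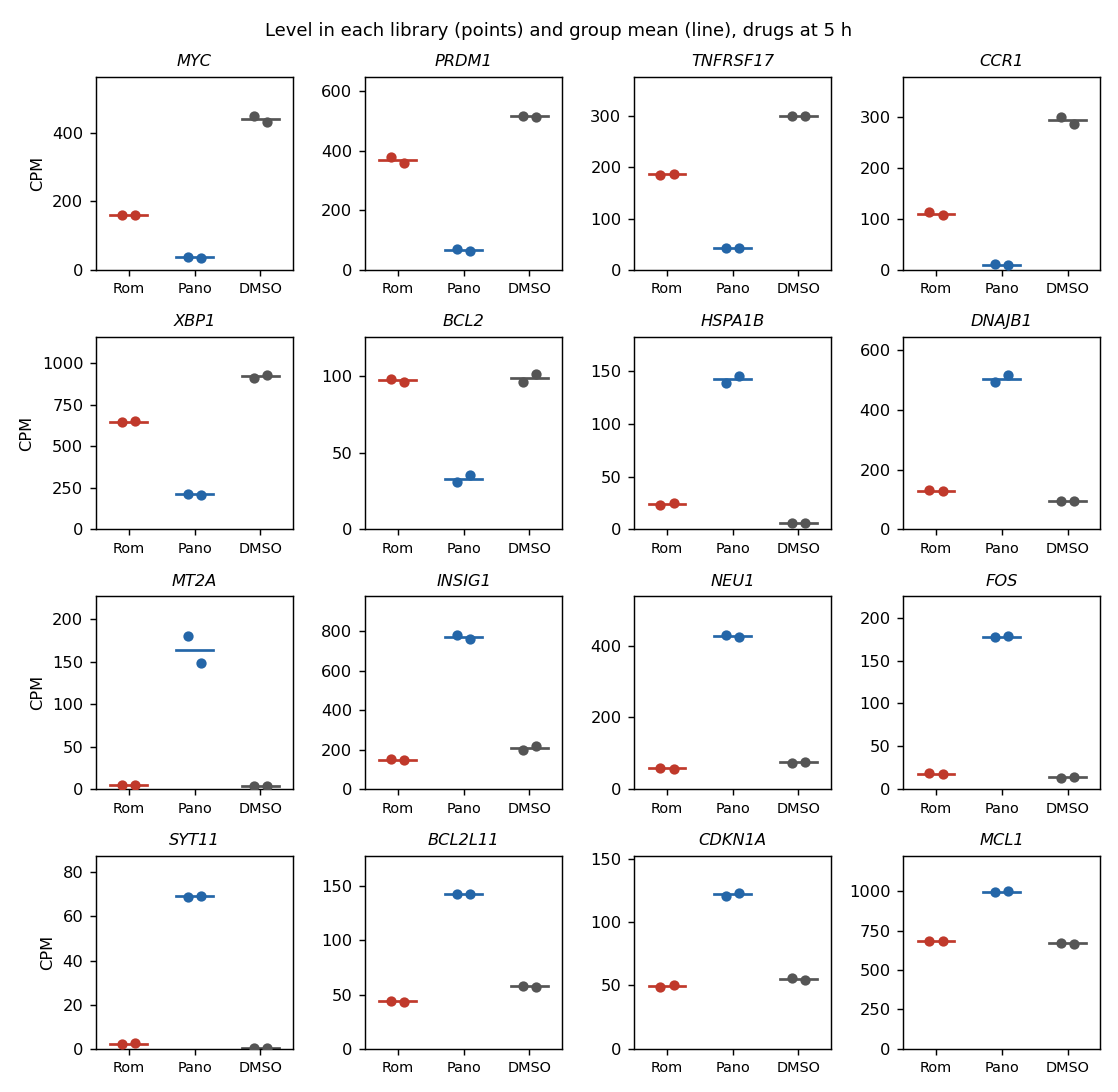
Level in CPM (vertical axes from 0, own scale per gene) of 16 genes in each library after 5 h with romidepsin (Rom) or panobinostat (Pano), and in DMSO, with group means as lines, n = 2 each. No romidepsin library overlaps a panobinostat library in these genes, for example 160.5 and 159 CPM against 37.4 and 35.3 CPM for MYC. The same held in 72.5% of all genes tested.

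Mitosis and DNA replication genes were mostly higher with romidepsin. Of 33 mitosis genes 26 were higher and 4 lower, with a median of 0.44, and of 43 DNA replication genes 27 were higher and 10 lower, with a median of 0.21. PLK1, a mitotic kinase, had 281 and 267 CPM with romidepsin, 117 and 111 CPM with panobinostat, and 339 and 340.2 CPM with DMSO. FOXM1, the factor behind many mitotic genes, was higher by 1.23 ± 0.05 (adjusted p = 5.1e-43), and TK1, thymidine kinase, was lower by -1.19 ± 0.04. CCND2, the D-type cyclin, named after its values were seen, had 355 and 336 CPM with romidepsin, 118 and 113 CPM with panobinostat, and 579 and 566 CPM with DMSO. Of 20 G1 cyclins and inhibitors of cyclin-dependent kinases, 9 were higher and 9 lower. CDKN1A, encoding p21, had 48.5 and 50.5 CPM with romidepsin, 121 and 123 CPM with panobinostat, and 55.6 and 54.1 CPM with DMSO. CDKN1B, encoding p27, had 144 and 141 CPM with romidepsin, 45.2 and 44.6 CPM with panobinostat, and 224 and 223 CPM with DMSO. Of 20 p53 target genes 13 were lower and 5 higher with a median of -0.55, and OPM2 is known to carry mutant p53.

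Genes of the acetylation machinery differed in both directions. HDAC1, a class I target of both drugs, had 198 and 199 CPM with romidepsin, 184 and 199 CPM with panobinostat, and 215 and 212 CPM with DMSO. The drugs' libraries overlapped, and the log2 difference was 0.05 ± 0.04 (adjusted p = 0.35), with a 95% interval of -0.04 to 0.14. Of the other class I genes, named after their values were seen, HDAC2 differed by 0.01 ± 0.05 (adjusted p = 0.87). HDAC3 was lower with romidepsin by -1.16 ± 0.07 (adjusted p = 7.9e-29), and HDAC8 was higher by 0.45 ± 0.13 (adjusted p = 0.002). HDAC6 had 61.9 and 60.1 CPM with romidepsin, 54.6 and 54.5 CPM with panobinostat, and 70.5 and 67.8 CPM with DMSO, a log2 difference of 0.16 ± 0.06 (adjusted p = 0.019). Its adjusted p was 0.055 with DESeq2 and ran from 0.019 to 0.11 over the alternatives. Of 18 HDAC and sirtuin genes 9 were lower and 5 higher, against 25.9% lower and 24.8% higher over all genes tested. HDAC7, a class IIa enzyme of lymphoid cells, had 112 and 109.7 CPM with romidepsin, 36.1 and 32.6 CPM with panobinostat, and 146 and 144 CPM with DMSO, whereas HDAC11 was lower by -2.23 ± 0.19. Of 20 acetyltransferases and acetyl-lysine readers 13 were higher and 4 lower, among them CREBBP, higher by 1.14 ± 0.05. HEXIM1, an inhibitor of the elongation factor P-TEFb, was lower by -1.23 ± 0.14.

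Of 27 interferon-stimulated genes tested 11 were lower, 1 was higher and 15 did not pass, with a median of -0.84. The median was the same with the 3 genes of at most 3 counts in a group set at their bound or ratio. The other 5 of 32 listed genes were not tested. Members nearly silent with DMSO and romidepsin could pass the filter through libraries where they were high, so the count and median do not describe all members. The shares over all genes tested were 25.9% lower and 24.8% higher. OASL, an antiviral relative of the oligoadenylate synthetases, had 4.73 and 4.5 CPM with romidepsin, 34.8 and 39.1 CPM with panobinostat, and 1.78 and 1.57 CPM with DMSO, a log2 difference of -3.00 ± 0.12 (adjusted p = 5.2e-42). STAT2, a signal carrier of interferon receptors, was lower by -0.99 ± 0.06. Genes of MHC class I and of natural killer cell recognition were split, 11 of 22 higher and 4 lower. MICB, a ligand of the killer receptor NKG2D, was higher by 1.38 ± 0.09, while its relative MICA was lower by -1.17 ± 0.21 and NECTIN2 by -2.10 ± 0.16. Of 13 MHC class II genes 11 did not pass.

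Some genes, chosen after their values were seen, lay apart from DMSO by similar amounts with both drugs. CAMSAP2, which binds microtubule minus ends, had 51 and 50.9 CPM with romidepsin, 51 and 54.2 CPM with panobinostat, and 12.2 and 13 CPM with DMSO. Its libraries overlapped between the drugs, and the log2 difference was -0.05 ± 0.07 (adjusted p = 0.62), with a 95% interval of -0.19 to 0.10. TRIM38, a ubiquitin ligase of innate immunity, had 48.1 and 48.1 CPM with romidepsin, 52.9 and 52.5 CPM with panobinostat, and 20 and 22.3 CPM with DMSO, with an interval of -0.28 to 0.01 for the difference between the drugs (adjusted p = 0.13). DUSP4, a phosphatase acting on MAP kinases, had the interval nearest to 0 among listed genes at 50 CPM or more that were at least 2-fold from DMSO with both drugs, yet it differed between the drugs. It had 70.5 and 71.1 CPM with romidepsin, 42 and 45 CPM with panobinostat, and 149 and 141 CPM with DMSO, a log2 difference between the drugs of 0.70 ± 0.06 (adjusted p = 1.9e-18), with an interval of 0.58 to 0.82.

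Other genes, likewise chosen after their values were seen, lay further from DMSO with romidepsin than with panobinostat. L3MBTL3, a reader of methylated lysine, had 33.2 and 32.8 CPM with romidepsin, 11.1 and 10.7 CPM with panobinostat, and 7.37 and 7.79 CPM with DMSO. GBP3, a guanylate-binding protein, had 25 and 24.7 CPM with romidepsin, 5.13 and 6.64 CPM with panobinostat, and 8.13 and 7.45 CPM with DMSO. CLEC7A, the beta-glucan receptor dectin-1, had 57 and 59.5 CPM with romidepsin, against 19.4 and 24.2 CPM with panobinostat and 24.9 and 25 CPM with DMSO. In the other direction, KLF11, a Kruppel-like repressor, had 7.65 and 7.19 CPM with romidepsin, 21.2 and 22.2 CPM with panobinostat, and 23 and 21.8 CPM with DMSO. DUSP2, a nuclear phosphatase of MAP kinases, had 6.74 and 6.31 CPM with romidepsin, 17.5 and 18.4 CPM with panobinostat, and 26.8 and 25.6 CPM with DMSO. An exception was MIDN, which carries proteins to the proteasome. It had 22.6 and 16.5 CPM with romidepsin, 108 and 108 CPM with panobinostat, and 46.4 and 46.9 CPM with DMSO. MIDN moved opposite ways by similar log2 differences from DMSO, -1.24 ± 0.08 with romidepsin and 1.22 ± 0.06 with panobinostat.

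The same pair of drugs was compared at 2 h and 20 h in other libraries. At 2 h 3624 genes were higher with romidepsin (17.3%) and 4154 lower (19.8%), and at 20 h 4907 were higher (23.4%) and 3835 lower (18.3%). Of the 1580 genes at least 2-fold higher at 5 h, 983 (62.2%) were higher at 2 h and 730 (46.2%) at 20 h, while 3 and 48 were lower. Of the 2512 genes at least 2-fold lower at 5 h, 1119 (44.5%) were lower at 2 h and 935 (37.2%) at 20 h, while 24 and 212 were higher. At 2 h 861 genes were at least 2-fold higher (4.11%) and 979 lower (4.67%), and at 20 h 1362 were higher (6.5%) and 900 lower (4.29%). At least 2-fold at both 5 h and 2 h were 433 higher genes, which is 27.4% of the 5 h list and 50.3% of the 2 h list, and 716 lower genes, 28.5% and 73.1% of these lists. At least 2-fold at both 5 h and 20 h were 450 higher genes, 28.5% of the 5 h list and 33% of the 20 h list, and 377 lower genes, 15% and 41.9%.

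The drug difference itself changed between times in many genes. Between 5 h and 2 h it differed in 3018 genes upward (14.4%) and 2036 downward (9.72%), and between 20 h and 5 h in 5200 upward (24.8%) and 3307 downward (15.8%). BCL2L11 had -1.93 at 2 h, -1.71 at 5 h and 1.15 at 20 h, the last with 198 ± 5.96 CPM with romidepsin and 89.2 ± 7.86 CPM with panobinostat (SD, n = 2 each). CDKN1A had -1.59, -1.30 and 0.84 at these times, with 564 ± 8.17 CPM with romidepsin and 315 ± 7.56 CPM with panobinostat at 20 h. Both genes were thus lower with romidepsin at 2 h and 5 h and higher at 20 h. PRDM1 stayed on 1 side, at 1.59, 2.47 and 3.21, and IRF4 crossed, at -0.49, 0.09 and 1.10.

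Several early differences were small at 20 h. HSPA1B had a log2 difference of -2.93 at 2 h, -2.54 at 5 h and -0.19 at 20 h, when it had 35.1 ± 1.46 CPM with romidepsin and 40.1 ± 2.19 CPM with panobinostat. OASL had -1.89, -3.00 and 0.13, the last not past the test (adjusted p = 0.24), with 68.1 ± 3.47 CPM with romidepsin and 62.3 ± 1.06 CPM with panobinostat. DHRS2 had -2.88 at 2 h, -6.16 at 5 h and 0.04 at 20 h (adjusted p = 0.80), when both drugs gave high levels, 1154 ± 18.6 CPM with romidepsin and 1123 ± 21.5 CPM with panobinostat. The immediate-early list had a median of -1.15 at 2 h, -1.33 at 5 h and 0.17 at 20 h, while the median over all genes was 0.00, -0.01 and 0.00. At 20 h its members still differed in both directions. Of 27 members 13 were higher with romidepsin and 7 lower, against 23.4% and 18.3% over all genes tested. Ribosome biogenesis genes had medians of -0.07, 0.13 and -0.61 at 2 h, 5 h and 20 h, with 16, 11 and 33 of 40 lower. Over all genes tested 19.8%, 25.9% and 18.3% were lower at these times, so the count at 5 h was close to that share. At 20 h DKC1 had 69.1 ± 1.32 CPM with romidepsin and 108 ± 0.815 CPM with panobinostat. Myeloma surface and secretory genes had positive medians at all 3 times, 0.59, 1.07 and 1.86, with 15, 15 and 17 of 19 higher. The shares higher over all genes tested were 17.3%, 24.8% and 23.4%.

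**Figure D4:**
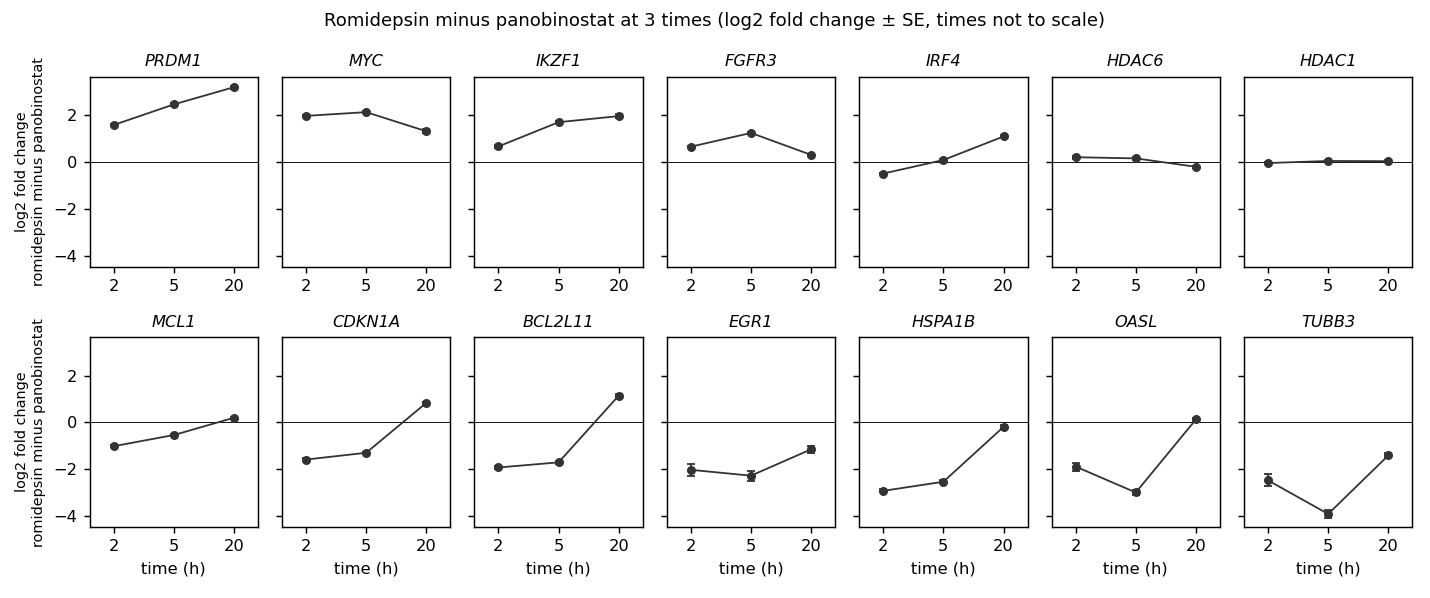
Log2 difference, romidepsin minus panobinostat (vertical axis), with its SE at 2, 5 and 20 h (horizontal axis, not to scale) for 14 panel genes, n = 2 libraries per drug and time. PRDM1 is above 0 throughout at 1.59 to 3.21, and BCL2L11 and CDKN1A are under 0 at 2 h and 5 h and above 0 at 20 h, at 1.15 and 0.84.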

How the data were processed

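The authors deposited raw counts, 1 column per library and 1 line per Ensembl identifier. The submitters' processing notes name HISAT2, SAMtools, featureCounts and GRCh38. Versions, annotation, strand setting and the unit counted (reads or pairs) are not stated in the sources used here, so counts of antisense genes and of near-identical copies are uncertain. Of 78932 identifiers 42179 had a symbol in the name table, and 57356 had a type and position in GENCODE 29.

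Counts were analysed with edgeR 4.0.16 in R 4.3.3. The filterByExpr filter (minimum count 10) left 20957 genes. TMM scaling preceded a robust quasi-likelihood fit of all 20 libraries in 10 groups, among them 6 libraries with ricolinostat, which is not compared here. The common dispersion was 0.00175. Romidepsin was set against panobinostat at 5 h, and as context at 2 h and 20 h, as the 1 pair of compounds compared. Adjusted p-values are Benjamini-Hochberg values of the two-sided quasi-likelihood F test within each contrast, with a threshold of 0.05, and a gene called higher or lower passed it. Levels are CPM with TMM scaling, and fold changes are log2 values, romidepsin minus panobinostat, with their SE. For 0 counts in a group a floor of 3 counts over its 2 libraries gives a bound, and for 1 to 3 counts a ratio has an exact 95% counting interval. Floors and intervals cover counting error only. The script was tested on simulated data.

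Named were, first, the 12 protein-coding genes with the largest difference in each direction among those that passed the test, had 5 CPM or more with either drug and showed no overlap between them. To these came up to 4 genes of each of 33 lists by size of difference, a panel of 14 genes, and listed genes at 50 CPM or more nearest to 0 while at least 2-fold from DMSO with both drugs. Other genes are said to be chosen after their values were seen. The members and lists were chosen with earlier results of these data known.

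Alternatives were DESeq2-type size factors, library size alone, DESeq2 1.42.0, no filter, a minimum count of 50, the 4 libraries alone, the replicate number as a block, and each library left out in turn. Promoters came from RefSeq on GRCh38.p14.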

Additional observations from a re-analysis of the deposited data

Results flagged for a closer look

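The difference between romidepsin and panobinostat was tested for change between times in the 14 panel genes, and 23 such changes passed the edgeR test. Each value below is a later drug difference minus an earlier one on the log2 scale, with 2 libraries per drug and time, and a positive value means that romidepsin gained relative to panobinostat.

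Among plasma cell factors, IRF4 changed by 0.59 between 2 h and 5 h and by 1.01 between 5 h and 20 h, PRDM1 by 0.88 and then 0.74, and IKZF1 by 1.04 and then 0.26. The last of these missed the threshold under 5 alternatives, with adjusted p-values up to 0.15 without panobinostat 20 h replicate 1. FGFR3 changed by 0.59 and then by -0.94, and MYC by -0.82 between 5 h and 20 h.

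Among survival and cell cycle genes, BCL2L11 changed by 0.22 and then by 2.86, CDKN1A by 0.29 and then by 2.14, and MCL1 by 0.48 and then by 0.74. The first change of BCL2L11 missed the threshold under most alternatives, with adjusted p-values up to 0.24 without panobinostat 2 h replicate 2. The first change of CDKN1A had an adjusted p of 0.063 without romidepsin 2 h replicate 1.

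HSPA1B changed by 0.39 and then by 2.35. TUBB3 changed by -1.44 and then by 2.51, and OASL by -1.11 and then by 3.13, so that both were relatively lowest with romidepsin at 5 h. The first change of TUBB3 had an adjusted p of 0.10 without romidepsin 2 h replicate 2. EGR1 changed by 1.13 and HDAC6 by -0.36 between 5 h and 20 h.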

How the results depend on the processing

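All counts of genes called in the 5 comparisons between romidepsin and panobinostat were within 1.5 times of the reported count under every alternative run. At 5 h the genes higher and lower with romidepsin numbered 5003 and 5622 with DESeq2-type size factors, 5156 and 5472 with library size alone, 4684 and 5179 with DESeq2, 4911 and 4966 with no filter, 4746 and 5031 at a minimum count of 50, and 5204 and 5239 with the 4 libraries alone. Leaving out 1 library in turn gave 4616 to 4717 higher and 4611 to 4787 lower, and 1435 to 1554 and 2085 to 2299 at 2-fold, where the lone library of a group is assumed to vary like the other groups. Which side was larger depended on the setting. At 5 h it turned without romidepsin replicate 1 (4711 higher and 4637 lower) and without panobinostat replicate 2 (4616 and 4611). At 2 h it turned with DESeq2-type size factors (3921 and 3858), with library size alone (4136 and 3748) and without panobinostat 2 h replicate 2 (3377 and 3335), and at 20 h with library size alone (4288 and 4557).

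Same-numbered libraries of the 2 drugs did not deviate together (r = 0.0711 at 5 h over 10015 genes), so no shared effect of the replicate number was seen. This cannot show whether same-numbered libraries were prepared together, which the labels do not state. With the replicate block 5133 genes were higher and 5394 lower at 5 h.

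Of 169 named genes, not counting MT1G, HDAC2, HDAC3 and HDAC8, 164 had the same sign and call at 5 h under all alternatives. Apart from IRF4 and HDAC6, RPS9 (adjusted p = 0.13 without panobinostat replicate 1) and RPS20 (0.051 without romidepsin replicate 2) lost theirs. CAMSAP2, which did not pass the test, ran from -0.07 to 0.02 over the left-out libraries, turning sign without panobinostat replicate 2. Signs turned in 3 differences between times that did not pass the test either. HDAC1 between 20 h and 5 h ran from -0.05 to 0.06, turning without panobinostat 5 h replicate 1, and HDAC6 between 5 h and 2 h ran from -0.09 to 0.03, turning without romidepsin 2 h replicate 1. EGR1 between 5 h and 2 h ran from -0.64 to 0.03, with 0.00 without panobinostat 5 h replicate 1 and 0.03 both without romidepsin 2 h replicate 1 and without panobinostat 2 h replicate 1. The cause was not tested.

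Of 1089 list values under the alternatives 119 moved, by more than the spread between replicates for a median or by over 1.5 times for a count. Among 726 counts 29 moved. The median of proteasome genes ran from 0.05 to 0.21 against 0.18 reported, of pro-apoptotic genes from -0.56 to -0.28 against -0.47, of interferon-stimulated genes from -0.98 to -0.54 against -0.84, and of neuronal genes from -2.34 to -1.70 against -2.18. The number of cytosolic ribosomal protein genes lower was 3 to 23 against 12 reported, of proteasome genes lower 2 to 6 against 6, of HDAC genes higher 3 to 5 against 5, of sterol genes higher 2 to 4 against 4, and of mitosis genes lower 2 to 4 against 4. With 2 libraries per group, differences in genes of a few counts have wide intervals, and the vehicle's harvest time and the batch are unknown.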

Other observations

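Further gene groups held differences between the drugs at 5 h in both directions. Of 40 nuclear genes of oxidative phosphorylation 16 were higher with romidepsin, 5 lower and 19 did not pass the test, with a median log2 difference of 0.06. The shares over all genes tested were 24.8% higher and 25.9% lower. UQCRFS1, the iron-sulphur subunit of complex III, had 181 and 176 CPM with romidepsin, 97.4 and 100 CPM with panobinostat, and 211 and 213 CPM with DMSO. Of 25 genes of amino acid transport, serine synthesis and the stress response 10 were higher and 12 lower. The glutamine transporter gene SLC38A1 had 718 and 692 CPM with romidepsin, 262 and 254 CPM with panobinostat, and 879 and 885 CPM with DMSO, while the stress genes DDIT4 and DDIT3 were lower by -1.51 ± 0.05 and -1.48 ± 0.12. DDIT4 was higher with romidepsin at 20 h, at 832 ± 21.6 CPM with romidepsin and 325 ± 3.58 CPM with panobinostat (SD, n = 2 each).

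Histone genes with polyadenylated transcripts were lower in 7 of 13 and higher in 3. The linker histone gene H1-10 had 215 and 199.6 CPM with romidepsin, 578 and 554 CPM with panobinostat, and 152 and 153 CPM with DMSO. Of the B cell genes, from which plasma cells have turned away, 11 of 18 were tested and 7 of these did not pass. BCL6, the repressor of germinal centre B cells, had 10.4 and 7.74 CPM with romidepsin, 21.9 and 26.7 CPM with panobinostat, and 2.29 and 2.05 CPM with DMSO. BACH2 was lower by -0.69 ± 0.09, and ETS1 was higher by 0.43 ± 0.10. The muscle atrophy ubiquitin ligase gene FBXO32, chosen after its values were seen, had 1.26 and 0.974 CPM with romidepsin, 17.7 and 18.3 CPM with panobinostat, and 1.86 and 2.65 CPM with DMSO.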
